A study of Rattus norvegicus with 40 samples.

Results

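Expression of 41 genes of amino acid transporter families was followed in INS-1E cells, a rat insulinoma line that makes and secretes insulin, during culture with or without inflammatory cytokines. The members were the rows of the array table whose gene symbol began with Slc1a (7 genes), Slc3a (2), Slc7a (14), Slc36a (4), Slc38a (11) or Slc43a (3), without the cationic amino acid carriers Slc7a1 and Slc7a2. They made up 41 of the 16587 gene symbols measured. The rule reads letters only, so it also takes in Slc7a6os, a neighbour of Slc7a6 that is not a carrier, and 40 members remain without it.

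The control cells stayed in medium alone and the cytokine cells received recombinant human IL-1 at 10 units/ml with recombinant murine IFN-γ at 100 units/ml, the pair used to model immune attack on beta cells. RNA was taken at 0, 1, 2, 4, 6, 8, 10, 12, 24, 36, 48, 60 and 72 h and hybridised to Affymetrix Rat ST arrays. The control arm held 15 arrays (duplicates at 0 and 1 h, a lone array at the 11 later times) and the cytokine arm 25 (duplicates throughout, apart from a lone array at 10 h). All cells carried the same label, INS1, so the results describe 1 tumour-derived line and not islets. A treatment label of some arrays names IFN-beta in place of IL-1, whereas titles, protocol and design text name IL-1.

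Amino acids do not cross membranes freely, and cells take them up, trade them and release them from lysosomes through carriers of these families. Some carriers work alone, such as the sodium-driven Slc38 proteins, and others need a partner: the heavy chains Slc3a1 and Slc3a2 bring the light chains of the Slc7 family to the cell surface. In beta cells, amino acids such as leucine, glutamine and arginine modify insulin secretion. Carriers including Slc3a2, Slc7a5, Slc7a11, Slc38a2 and Slc1a5 are also known targets of ATF4, the transcription factor of the response to amino acid shortage and endoplasmic reticulum stress.

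Promoters are shown first for the genes to which the results return: Slc38a1 and Slc1a2, the called members that have a RefSeq promoter entry, Slc1a4, which shares a motif with Slc38a1, and the ATF4 target Trib3, which rose. Each is the 250 bases before the transcript start that the RefSeq promoter table lists for the gene in the rat assembly GRCr8 (the first where several are listed), read 5′ to 3′ on the gene's strand, and capitals mark the C/EBP-ATF response element TGATGNAA or its reverse complement, the motif that ATF4 binds with its partners. Slc38a1 lies at chr7:129681402-129681651 and Slc1a4 at chr14:98761563-98761812, both on the minus strand. Trib3 lies at chr3:161275534-161275783 on the minus strand and Slc1a2 at chr3:109459859-109460108 on the plus strand. The annotated spans of Slc38a1 and Slc1a4 reach further upstream, so that all 250 bases of the first window and 110 of the second lie within the gene's annotated span, whereas 0 bases of the other two do.
Slc38a1: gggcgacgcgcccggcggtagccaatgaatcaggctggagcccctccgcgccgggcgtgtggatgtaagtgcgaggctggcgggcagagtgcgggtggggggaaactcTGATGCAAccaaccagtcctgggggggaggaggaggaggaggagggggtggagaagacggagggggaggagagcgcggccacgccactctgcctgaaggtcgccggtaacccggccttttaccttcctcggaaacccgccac
Slc1a4: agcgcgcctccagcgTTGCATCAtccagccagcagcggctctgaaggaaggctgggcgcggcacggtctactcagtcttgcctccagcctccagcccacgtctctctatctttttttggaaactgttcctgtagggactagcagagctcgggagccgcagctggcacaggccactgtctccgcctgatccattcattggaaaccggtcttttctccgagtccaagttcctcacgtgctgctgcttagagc
Trib3: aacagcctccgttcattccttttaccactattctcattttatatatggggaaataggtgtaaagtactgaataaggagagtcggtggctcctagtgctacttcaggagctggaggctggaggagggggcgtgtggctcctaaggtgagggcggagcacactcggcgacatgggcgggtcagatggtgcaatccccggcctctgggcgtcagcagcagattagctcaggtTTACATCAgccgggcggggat
Slc1a2: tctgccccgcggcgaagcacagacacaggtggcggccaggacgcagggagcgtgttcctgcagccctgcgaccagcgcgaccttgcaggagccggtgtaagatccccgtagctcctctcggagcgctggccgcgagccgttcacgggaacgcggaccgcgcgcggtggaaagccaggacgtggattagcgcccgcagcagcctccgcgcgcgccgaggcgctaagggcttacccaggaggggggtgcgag

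The element began at position -142 in Slc38a1, counted back from -1 at the last base before the listed start, on the printed strand, and it lay on the opposite strand in Slc1a4 and Trib3. Promoters were found for 32 of the 41 members, with no entry for Slc1a1, Slc1a5, Slc38a3, Slc38a10, Slc38a11, Slc43a3, Slc7a3, Slc7a4 and Slc7a13. These members have 36 promoters, since some have several starts. TGATGNAA was present on either strand in 2 of the 36, those of Slc1a4 and Slc38a1, and in 3.4% of all 33469 rat promoters of the same length. The interferon-stimulated response element, searched as GAAA and GAAA with any 2 bases between, was found in 3 of the 36, all of Slc1a3, and 3.41% of all promoters. The gamma-activated sequence TTCNNNGAA was found in 1 of the 36, of Slc36a4, and 7.67% of all promoters. The kappaB motif, searched as GGG and TTCC with any 3 bases between, was found in 3 of the 36, those of Slc43a2, Slc7a10 and Slc7a6os, and 4.53% of all promoters. No member held more than 1 of these 4 motifs, so no matches of different motifs overlapped in a member's window. Of the called members with a promoter, Slc38a1 held TGATGNAA and Slc1a2 held none of the 4 motifs in this window.

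The array values are log2 signals, so a difference of 1 is a 2-fold change. Averaged over the control arrays, members ran from 3.68 (Slc7a13) to 10.94 (Slc43a2), against quartiles of 5.08, 6.75 and 8.35 over all genes measured. These levels place a gene among all probe sets and do not rank members against each other, since each probe set binds with its own strength. A set of 12 members lay above the upper quartile, among them Slc43a2, Slc3a2 (10.9), Slc38a4 (10.89), Slc38a2 (10.76) and Slc7a5 (10.33). Another 12 lay under the lower quartile and are called dim here: Slc7a13, Slc38a11, Slc7a12, Slc7a11, Slc3a1, Slc38a5, Slc43a1, Slc7a7, Slc7a3, Slc36a3, Slc43a3 and Slc7a9. The remaining 29 members were not dim. Since the arrays measured whole cultures, fewer cells of a type and less RNA per cell cannot be told apart.

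Arrays had similar scales, with medians between 6.54 and 6.62, and correlated with each other at 0.971 to 0.996 across probe sets. Of 8 beta cell markers, the 5 measured averaged 11.87 to 12.23 on control arrays and 11.54 to 12.13 on cytokine arrays. The 4 measured leukocyte markers were all dim, with averages of 4.14 to 4.58 on control and 4.15 to 4.49 on cytokine arrays. Beta cell markers moved with the cytokines: Nkx6-1 and Slc30a8 fell by 0.44 and 0.55 on the log2 scale in the intermediate window, and all 5 fell in the late window, Ins2 by 0.64. Of the 2 measured alpha cell markers, Gcg, which encodes glucagon, fell by 0.69 (adjusted p 0.00699) in the intermediate window and fell by 2.80 (adjusted p 9.27e-12) in the late window. The other, Irx2, averaged 7.13 on control and 7.0 on cytokine arrays and was not called in any window. The part of these markers in the members' results was not tested. Beyond 1 h all control arrays carry replicate number 1, whereas cytokine arrays carry 1 and 2, and the labels do not tie these numbers to the 2 occasions on which the experiment was run. Differences among replicate 1 arrays alone are therefore given where they alter a result. They come from an additive model of time and treatment within each window, whereas the main fit to all arrays has a term for each group. Their p-values thus differ from the main fit in model as well as in arrays.

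Cytokine and control arrays were compared with limma, over all 16587 genes, at 0 h and as equally weighted means of 3 windows: early (1 to 4 h), intermediate (6 to 12 h) and late (24 to 72 h). Genes with a Benjamini-Hochberg adjusted p under 0.05 are said to be called. At 0 h none of the 41 members and 0% of all genes were called, and 1 member had an unadjusted p under 0.05, Slc38a10, which was 0.25 higher in the cytokine arm. In the early window 0 of 41 were called against 1.49% of all genes, and 0 members had an unadjusted p under 0.05. The members' median early difference was -0.09, beside -0.02 over all genes, and they lay between -0.33 and 0.25.

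In the intermediate window 4 of 41 members were called, and all 4 fell: Slc38a3, Slc1a2, Slc38a10 and Slc38a1. This is 9.76% of the members, beside 9.05% of all genes called in either direction and 4.11% called lower. Their median difference was -0.04, beside -0.03 over all genes, and the members spanned -0.80 to 0.20. In the late window 1 of 41 fell, Slc38a3, or 2.44% beside 8.73% of all genes called in either direction and 4.22% called lower. The late median was -0.02 beside -0.04 over all genes, with a span from -0.24 to 0.46. No member was called higher in any window, whereas 4.94% of all genes were called higher in the intermediate and 4.51% in the late window.

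**Figure D1:**
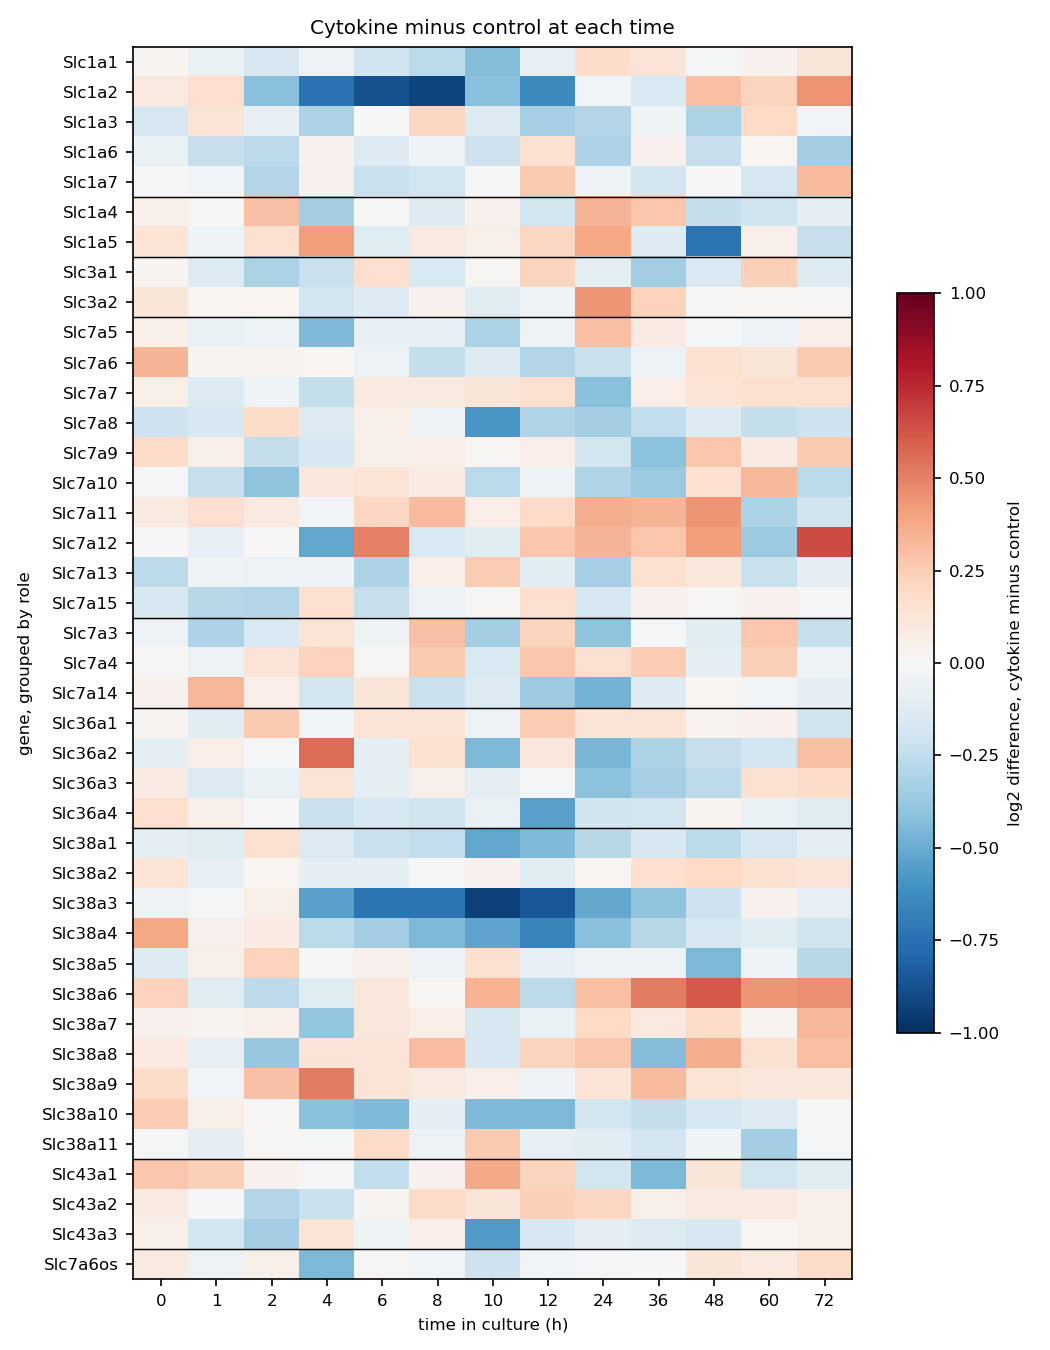
Log2 difference between cytokine and control arrays for each of the 41 members (rows, grouped by role between black lines) at each of 13 times (columns, in hours, not to scale). Blue cells are lower and red cells higher with cytokines, and the darkest blue cells are in the rows of Slc38a3, which reached -0.93 at 10 h, and Slc1a2.

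The Slc38 proteins are sodium-coupled carriers of small neutral amino acids, and 3 of the 11 were lower with cytokines at 6 to 12 h. The clearest was Slc38a3, the system N carrier SNAT3 that moves glutamine, asparagine and histidine. Its control arrays at 6, 8, 10 and 12 h read 9.08, 9.01, 9.10 and 9.10, whereas the 7 cytokine arrays ran from 8.17 through a median of 8.26 to 8.36. The arms did not overlap, and the lowest control array lay well above the highest cytokine array. The fitted difference was -0.80 (SE 0.08, 95% interval -0.98 to -0.63), a 1.75-fold lower signal with an adjusted p of 4.08e-07 by limma. Among replicate 1 arrays alone, 4 against 4, it was also -0.80 with an adjusted p of 0.00142.

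The course of Slc38a3 can be read time by time. At 0, 1 and 2 h the arms differed by -0.05, -0.01 and 0.06. From 4 to 12 h they differed by -0.54, -0.73, -0.72, -0.93 and -0.85. From 24 to 72 h they differed by -0.51, -0.40, -0.21, 0.04 and -0.08, each with an SE of 0.13 to 0.18. A gap was first seen at 4 h, was widest at 10 h and was not seen at 60 and 72 h.

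Both turns of this course passed a test of their own. The intermediate difference was more negative than the early one by 0.64 (difference -0.64, SE 0.12, adjusted p 0.00502 by limma), where 1 of 41 members, 1.24% of all genes in either direction and 0.163% in the negative direction were called. The late difference was less negative than the intermediate one by 0.57 (SE 0.11, adjusted p 0.00479), where again 1 of 41 members, 2.29% of all genes in either direction and 0.862% in the positive direction were called. Without the 2 h control array the first of these was -0.53 with an adjusted p of 0.0757.

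The control arm of Slc38a3 was also lower at the late times. Its control arrays read 9.05, 8.95, 8.76, 8.60 and 8.67 from 24 to 72 h, beside 9.01 to 9.29 up to 12 h. The 10 cytokine arrays of these times ran from 8.38 through 8.60 to 8.80, and the arms overlapped. The late difference of -0.23 (SE 0.07, adjusted p 0.0439) was the sole late call. It was lost in 10 of the 15 fits that left out 1 array, where it ranged from -0.30 to -0.16 and the adjusted p from 0.00846 to 0.301, and it was -0.24 with an adjusted p of 0.17 among replicate 1 arrays.

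Slc38a10, a less studied member of the family, fell by 0.36 on the log2 scale at 6 to 12 h, or 1.28-fold (SE 0.06, adjusted p 0.000641). Control arrays at 6, 8, 10 and 12 h read 8.59, 8.43, 8.57 and 8.61, and the 7 cytokine arrays ran from 8.11 through 8.16 to 8.40. The highest cytokine value, at 8 h, stayed just under the lowest control value, which was also at 8 h. Replicate 1 arrays alone gave a difference of -0.35 with an adjusted p of 0.102. The late difference was -0.14 (adjusted p 0.134), and at 72 h the arms differed by 0.01. At 0 h the cytokine arm had been 0.25 higher (adjusted p 0.999).

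Slc38a1, the system A carrier SNAT1 that takes up glutamine and alanine, fell by the same 0.36 on the log2 scale in the intermediate window, 1.28-fold (SE 0.09, adjusted p 0.0171). Its control arrays read 8.22, 8.42, 8.50 and 8.44 and its cytokine arrays ran from 7.88 through 8.08 to 8.25. Here the arms overlapped by a narrow margin, since the 6 h control array lay below the highest cytokine array. The call was lost without the 12 h control array (-0.33, adjusted p 0.0875). It was also lost without the lone control array or the lone cytokine array of 10 h. Either removal takes 10 h out of the window and gives the same comparison (-0.30, adjusted p 0.0908). Among replicate 1 arrays the difference was -0.34 with an adjusted p of 0.0693.

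Slc38a4, the system A carrier SNAT4 best known from liver, was not called in the main fit, and its arrays stood apart by replicate number. At 6 to 12 h its control arrays read 10.60, 10.76, 10.69 and 10.83 and its cytokine arrays ran from 10.05 through 10.29 to 10.32. The arms did not overlap, yet the fitted difference of -0.50 carried an SE of 0.21 and an adjusted p of 0.176. The additive model over all arrays gave -0.49 (adjusted p 0.00214). The same model on replicate 1 arrays alone gave -0.54 (adjusted p 0.0166). In the late window the 5 replicate 1 cytokine arrays lay between 10.28 and 10.69 and the 5 replicate 2 arrays between 10.66 and 11.82, beside a control range of 10.89 to 11.46. All 5 replicate 1 arrays were below that range, whereas the replicate 2 arrays lay below, within and above it. The late difference was -0.24 (adjusted p 0.506) over all arrays and -0.62 (adjusted p 0.000835) among replicate 1 arrays. Replicate 2 lay above replicate 1 by 0.40 on average over the groups with both.

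The same spread between replicate numbers was seen in Slc38a2 and Slc38a6. Slc38a2, the system A carrier SNAT2 and an ATF4 target, differed by -0.05, -0.04 and 0.13 in the early, intermediate and late windows (adjusted p 0.966, 0.943 and 0.651). Its late cytokine arrays lay between 10.68 and 11.02 in replicate 1 and between 10.95 and 11.93 in replicate 2, around control values of 10.80, 10.78, 10.94, 11.16 and 11.34. The adjacent genes Slc38a1, Slc38a2 and Slc38a4 follow one another on chromosome 7 with no coding gene between them; the 2 outer genes had intermediate differences of -0.36 and -0.50 and the middle one -0.04.

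Slc38a6 had the largest positive late difference of any member, 0.46 (SE 0.17, adjusted p 0.115). Its late control arrays read 6.40, 6.53, 6.37, 6.61 and 6.78, and its 10 cytokine arrays ran from 6.58 through 6.90 to 7.82. The 4 highest of these were replicate 2 arrays, and among replicate 1 arrays the difference was 0.21 with an adjusted p of 0.311. It was called only in the fits without the 60 h or the 72 h replicate 1 cytokine array, at 0.55 (adjusted p 0.0409) and 0.58 (0.0173).

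**Figure D2:**
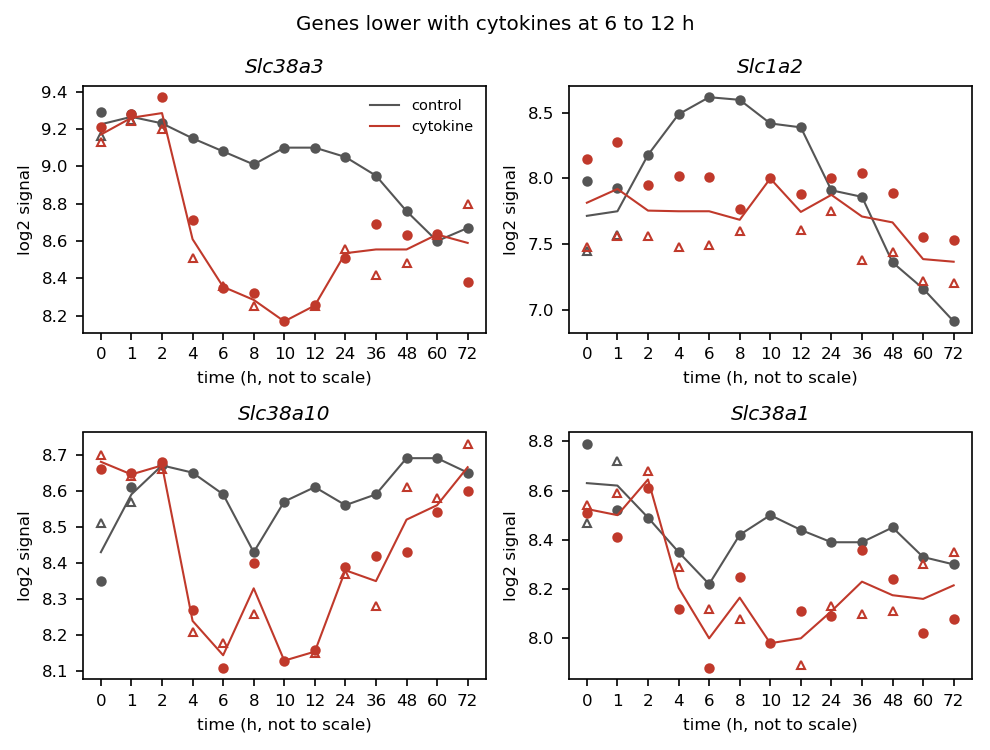
Log2 signal of Slc38a3, Slc1a2, Slc38a10 and Slc38a1 (vertical axes, each with its own range) against time in hours (categories, not to scale) for control (grey) and cytokine (red) arrays. Filled circles are replicate 1 arrays, open triangles replicate 2 arrays, and lines join the means of each time: the cytokine arrays of Slc38a3 at 6 to 12 h all lie at or under 8.36 and the control arrays at or above 9.01.

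The other 5 members of the family were not called in any window. Slc38a9, the lysosomal arginine sensor that signals to mTORC1, differed by 0.25, 0.06 and 0.16 in the 3 windows. Slc38a7, a lysosomal glutamine carrier, differed by -0.10, -0.02 and 0.17, and Slc38a8 by -0.11, 0.12 and 0.13. The dim Slc38a5, a second system N carrier, differed by 0.10, 0.02 and -0.18, with a smallest adjusted p of 0.105, and the dim Slc38a11 by -0.03, 0.08 and -0.14.

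**Figure D3:**
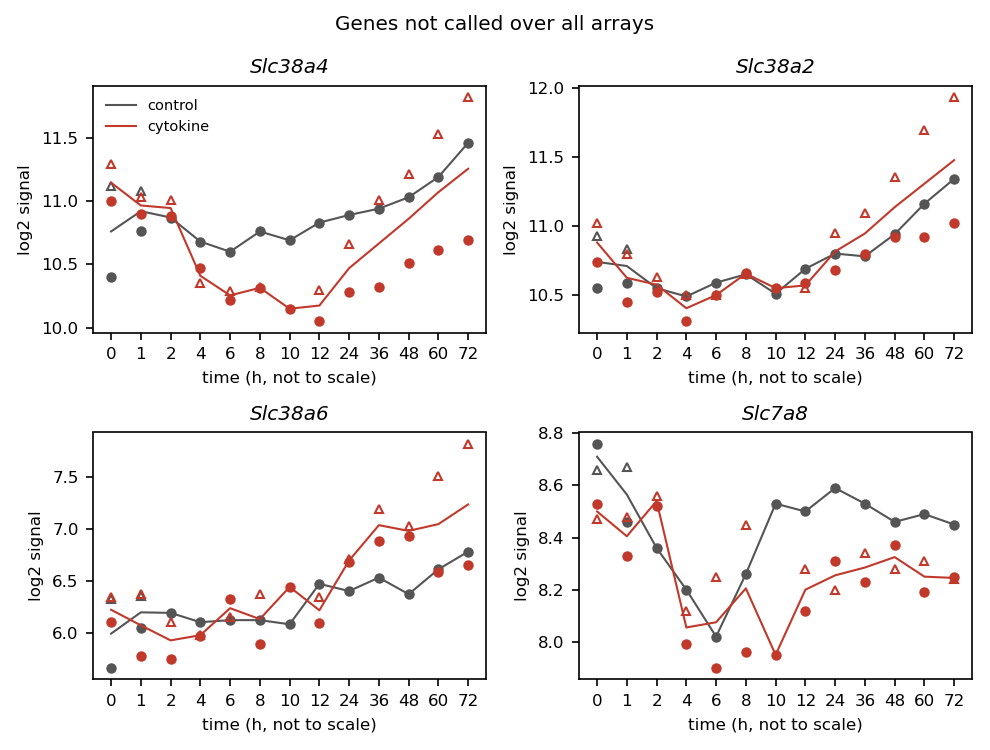
Log2 signal of Slc38a4, Slc38a2, Slc38a6 and Slc7a8 (vertical axes, each with its own range) against time in hours (categories, not to scale) for control (grey) and cytokine (red) arrays, with filled circles for replicate 1, open triangles for replicate 2 and lines through the means. From 24 h on, replicate 2 cytokine arrays of Slc38a4 (10.66 to 11.82) stand apart from replicate 1 (10.28 to 10.69), whereas those of Slc7a8 do not.

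The Slc1 family holds 5 carriers of glutamate and 2 exchangers of neutral amino acids, and 1 of the 7 was called. Slc1a2 encodes GLT-1, the carrier that clears glutamate at synapses and is also found in pancreatic islets. It fell by 0.72 on the log2 scale at 6 to 12 h, 1.64-fold (SE 0.19, 95% interval -1.10 to -0.33, adjusted p 0.0162). Control arrays at 6, 8, 10 and 12 h read 8.62, 8.60, 8.42 and 8.39, and the 7 cytokine arrays ran from 7.49 through 7.77 to 8.01. The arms did not overlap.

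The control signal of Slc1a2 was not level over time. Replicate 1 control arrays read 7.98 at 0 h, 7.93 at 1 h, 8.18 at 2 h and 8.49 at 4 h before the values above, then 7.91, 7.86, 7.36, 7.16 and 6.91 from 24 to 72 h. Replicate 1 cytokine arrays stayed between 7.77 and 8.28 from 0 to 48 h and read 7.55 and 7.53 at 60 and 72 h. The control signal was thus high at 4 to 12 h and lowest at 72 h, while the cytokine signal covered a smaller range. The control drop from 1 to 12 h to the late times was -0.91 (SE 0.17, adjusted p 0.0173), a comparison in which 2 of 41 members, or 4.88%, were called, both lower, beside 1.2% of all genes in either direction and 0.808% lower.

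Slc1a2 also differed between replicate numbers, with replicate 2 lower by 0.44 on average. Replicate 1 arrays alone gave -0.59 (adjusted p 0.0113) at 6 to 12 h, where replicate 2 cytokine arrays have no control of their own number. At the late times the difference was 0.16 (adjusted p 0.641) over all arrays and 0.36 (adjusted p 0.049) among replicate 1 arrays. The intermediate call was lost without the 6 h control array (-0.66, adjusted p 0.0772) or the 8 h one (-0.65, 0.0904), and the control drop without the 60 h (-0.84, 0.0521) or 72 h array (-0.78, 0.0872).

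The other glutamate carriers had smaller differences. Slc1a1, the neuronal and epithelial carrier EAAC1, differed by -0.10, -0.25 and 0.09 in the early, intermediate and late windows, with a smallest adjusted p of 0.165. Slc1a3, the glial carrier GLAST, differed by -0.09, -0.06 and -0.10, Slc1a6 by -0.15, -0.06 and -0.16 and Slc1a7 by -0.09, -0.04 and -0.02. None of these 4 was called.

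The neutral exchangers Slc1a4 (ASCT1) and Slc1a5 (ASCT2), which trade serine, alanine and glutamine, were not called either. Slc1a4 differed by -0.01, -0.07 and 0.01. Slc1a5 differed by 0.18, 0.06 and -0.13 with a smallest adjusted p of 0.481. Its late control arrays read 5.95, 6.11, 6.56, 5.97 and 6.36 and its 10 late cytokine arrays 5.56 to 6.36, so the arms overlapped throughout.

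Among the heavy chains, Slc3a2 encodes 4F2hc, the partner of most light chains, and Slc3a1 encodes rBAT. Slc3a2 differed by -0.05, -0.06 and 0.14 in the 3 windows (adjusted p 0.905, 0.752 and 0.237). Late control arrays read 10.82, 10.87, 10.89, 10.81 and 10.79. At 24 h the cytokine arrays read 11.24 and 11.28, at 36 h 11.33 and 10.87, and at 48 to 72 h between 10.74 and 10.94. The 3 highest of the 10 late cytokine arrays were thus from 24 and 36 h, and the difference was 0.44 at 24 h, 0.23 at 36 h and 0.01 at 60 and 72 h. Slc3a2 reached an adjusted p of 0.0458 only when the 36 h replicate 2 cytokine array was left out (0.18). Slc3a1 was dim and differed by -0.22, 0.06 and -0.10.

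The light chains of the Slc7 family number 10 here, 5 of them dim, and none was called. Slc7a5 encodes LAT1, which exchanges leucine and other large neutral amino acids. It differed by -0.19, -0.13 and 0.08 (smallest adjusted p 0.509). Its 24 h cytokine arrays read 10.43 and 10.52 beside a control of 10.17, and its 36 h arrays 10.60 and 10.08 beside 10.26. At 4 h the order was the other way, with cytokine arrays at 10.17 and 10.14 and the control at 10.60.

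Slc7a8 encodes LAT2, a light chain with a similar range of substrates, and came closest to a late call. Its control arrays read 8.59, 8.53, 8.46, 8.49 and 8.45 from 24 to 72 h, and its 10 cytokine arrays ran from 8.19 through 8.27 to 8.37. Its arms did not overlap at the late times, and all 5 late times were lower with cytokines. The difference of -0.23 had an adjusted p of 0.0685, and replicate 1 arrays gave -0.24 with 0.0651. With quantile normalization it was -0.25 with an adjusted p of 0.0382.

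Slc7a11 encodes xCT, the cystine and glutamate exchanger that supplies cystine for glutathione. It was dim, with control arrays between 3.76 and 4.41 and cytokine arrays between 3.90 and 4.76, and differed by 0.08, 0.20 and 0.12 (smallest adjusted p 0.349). Its arms overlapped in every window. Slc7a6 differed by 0.03, -0.18 and 0.05, Slc7a10, the small neutral amino acid carrier asc-1, by -0.18, -0.02 and -0.09, and Slc7a15 by -0.14, -0.03 and -0.02. The other dim light chains Slc7a7, Slc7a9, Slc7a12 and Slc7a13 lay between -0.20 and 0.26 in all windows.

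The 3 members of the cationic branch were not called. Slc7a4 differed by 0.10 in each window and Slc7a14 by 0.07, -0.15 and -0.14, while the dim Slc7a3, the arginine carrier CAT3, differed by -0.11, 0.03 and -0.10. The non-carrier Slc7a6os differed by -0.15, -0.06 and 0.08.

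None of the 4 Slc36 carriers was called. Slc36a4 differed by -0.06, -0.24 and -0.11, with an intermediate adjusted p of 0.092, and Slc36a1, the lysosomal carrier PAT1, by 0.04, 0.12 and 0.03. Slc36a2 differed by 0.20, -0.07 and -0.18 and the dim Slc36a3 by -0.02, -0.04 and -0.13. Slc36a1, Slc36a2 and Slc36a3 are neighbours on chromosome 10 with no coding gene between them.

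Of the Slc43 family, Slc43a2 encodes LAT4, a carrier of branched-chain amino acids and phenylalanine. It differed by -0.18, 0.15 and 0.10 over all arrays (smallest adjusted p 0.655), and by 0.31 with an adjusted p of 0.0223 among replicate 1 arrays of the late window. Slc43a1 (LAT3) and Slc43a3 were dim and differed by 0.09, 0.10 and -0.16 and by -0.13, -0.18 and -0.06.

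**Figure D4:**
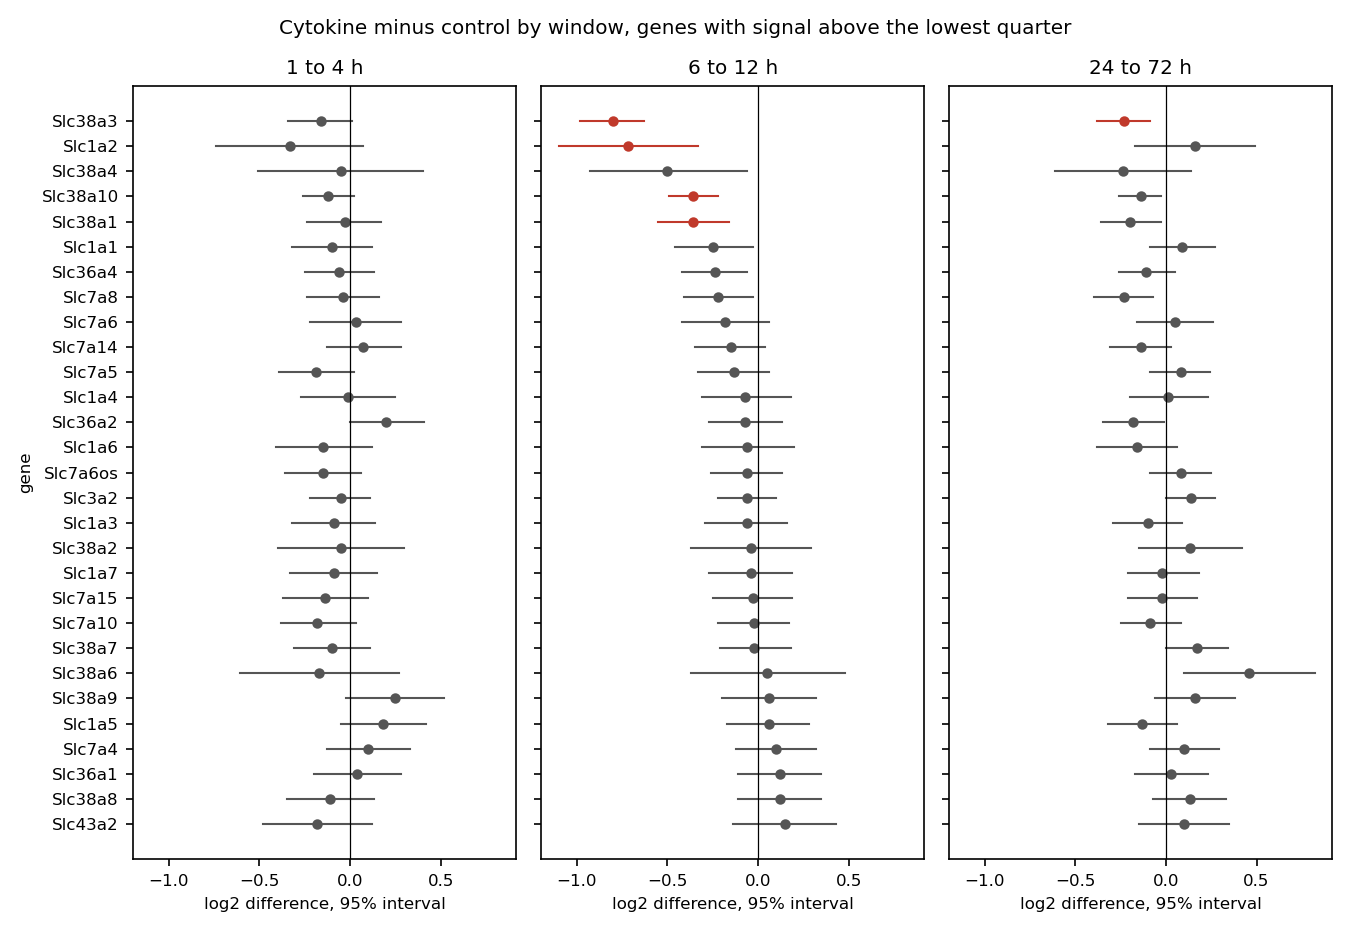
Fitted log2 difference between cytokine and control arrays (points) with its 95% interval (lines) for the 29 members that were not dim, in the early, intermediate and late windows. Red marks an adjusted p under 0.05: Slc38a3, Slc1a2, Slc38a10 and Slc38a1 in the middle panel and Slc38a3 in the right panel.

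Across all members, the 25 that were neither dim nor called had window differences between -0.50 and 0.46 and a smallest adjusted p of 0.0685. The 12 dim members lay between -0.22 and 0.26, with a smallest adjusted p of 0.105. The median SE of a member was 0.11 in the early and intermediate windows and 0.09 in the late window, and a missed threshold does not show that a member was level. The labels do not say that replicates came from separate cultures, so the p-values reflect scatter among these arrays that may be technical.

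Control culture alone also altered 2 members. Besides Slc1a2, Slc38a3 fell from the control arrays of 1 to 12 h to those of 24 to 72 h by 0.33 on the log2 scale (SE 0.07, adjusted p 0.0385). This call was lost without the 2, 4, 48, 60 or 72 h control array, where the difference lay between -0.32 and -0.27 and the adjusted p between 0.0563 and 0.142. In this comparison 12 members, or 29.3%, had an unadjusted p under 0.05, beside 15.1% of all genes. Slc38a2, Slc38a4 and Slc38a6 had positive values of 0.40, 0.34 and 0.35 that were not called in the main fit (adjusted p 0.177, 0.418 and 0.371). All 3 were called among replicate 1 arrays with the additive model, at 0.42, 0.36 and 0.38 (adjusted p 0.0294, 0.0476 and 0.0364). With both replicate numbers the additive model still called Slc38a2 (0.39, adjusted p 0.042) and Slc38a6 (0.35, 0.0477). A fit with the replicate number as a block called Slc38a2 (0.43, 0.022).

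Genes that act beside the carriers were read from lists. Over all genes, 1.49% were called early, 4.94% higher and 4.11% lower at 6 to 12 h, and 4.51% higher and 4.22% lower at 24 to 72 h. The counts of each list stand beside these shares. Of 22 measured genes of the amino acid response driven by ATF4, 0 were called early, 3 higher and 2 lower at 6 to 12 h, and 6 higher and 0 lower at 24 to 72 h. The late risers were Trib3, a stress-induced pseudokinase (1.07, SE 0.15), Ddit3, which encodes the stress factor CHOP (0.89), Atf3 (0.61), Cebpg (0.44), asparagine synthetase Asns (0.42) and Atf4 itself (0.30). Trib3 signal lay between 4.84 and 5.30 on the 5 late control arrays and between 5.38 and 7.38 on the 10 cytokine arrays. Asns lay between 10.01 and 10.14 on control and between 10.35 and 10.80 on cytokine arrays of these times. Neither gene's arms overlapped. The carriers of the same response, Slc3a2, Slc7a5, Slc7a11, Slc38a2 and Slc1a5, had late differences of 0.14, 0.08, 0.12, 0.13 and -0.13, none called. These are means over the window. At 24 h alone the carriers differed by 0.44, 0.30, 0.36, 0.02 and 0.39, and at 72 h by 0.01, 0.07, -0.20, 0.13 and -0.23. The 6 risers, in the order above, differed by 1.54, 1.63, 1.04, 0.71, 0.47 and 0.71 at 24 h. At 72 h they differed by 0.60, 0.21, 0.59, 0.17, 0.41 and 0.13. A shared timing was not tested.

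**Figure D5:**
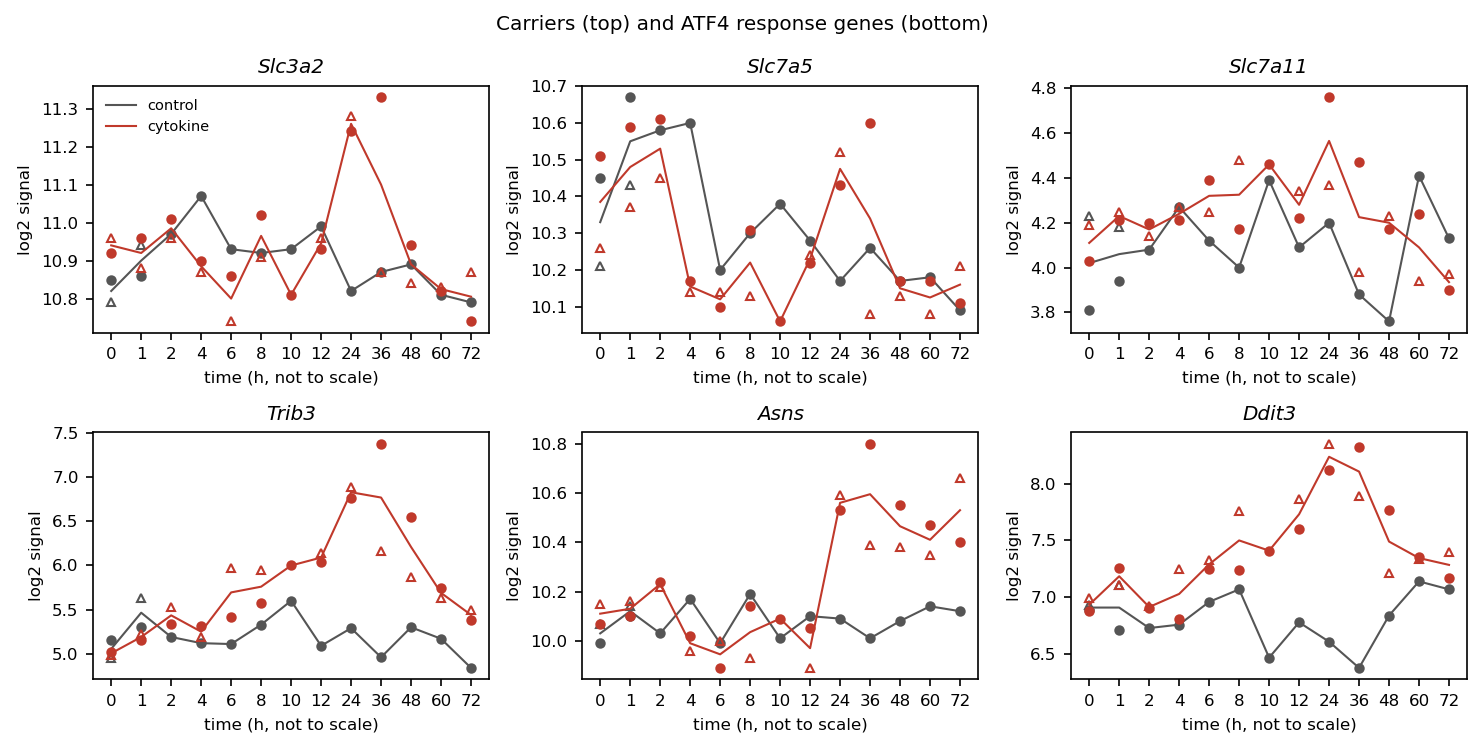
Log2 signal of the carriers Slc3a2, Slc7a5 and Slc7a11 (top) and the ATF4 response genes Trib3, Asns and Ddit3 (bottom) against time in hours (categories, not to scale) for control (grey) and cytokine (red) arrays, with filled circles for replicate 1, open triangles for replicate 2 and lines through the means. The arms of Trib3 and Asns do not overlap over the late window, whereas those of Slc3a2 do, with a difference of 0.44 at 24 h.

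Among 24 measured amino acid carriers of other families, 1 was higher and 1 lower at 6 to 12 h, and 1 higher and 3 lower at 24 to 72 h. Slc6a15, a neuronal carrier of branched-chain amino acids and proline, fell by 0.70 and then 0.37 on the log2 scale (adjusted p 0.00035 and 0.0271). The mitochondrial glutamate carrier Slc25a22 rose by 0.39 at 6 to 12 h. Ctns, the lysosomal cystine exporter, rose by 0.41 late, whereas the aspartate and glutamate carrier Slc25a13 fell by 0.35 and Slc25a18 by 0.26.

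Of 8 measured enzymes of glutamine and glutamate metabolism, glutamate dehydrogenase Glud1 was lower at 6 to 12 h (-0.35) and the GABA-forming Gad1 higher at the late times (0.72), and no other was called. Of 6 measured genes of glutathione synthesis, Gss was lower at 6 to 12 h (-0.43) and none was called late. On control arrays alone, 4 of these 6 were called lower at 24 to 72 h than at 1 to 12 h, beside 0.808% of all genes. They were led by Gclc (-0.62) and Gclm (-0.48), the subunits of the rate-limiting enzyme. Of 7 genes of branched-chain amino acid breakdown, Ppm1k was higher (0.36) and Dbt (-0.37) and Bckdk (-0.31) lower at 6 to 12 h, and Bckdhb was lower late (-0.45).

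Of 20 measured genes of amino acid sensing by mTORC1, the growth kinase complex that carriers such as Slc38a9 feed, 0 were higher and 3 lower at 6 to 12 h, and 3 higher and 2 lower late. The intermediate falls were in Castor2 (-0.52), a relative of the arginine sensor Castor1, and in Sesn3 (-0.39) and Sesn1 (-0.38), sestrins that restrain the complex. The late rises were in Rragd (0.70) and Rragc (0.46), lysosomal GTPases that recruit it, and in Flcn (0.59), which acts on them, while Sesn3 (-0.43) and Sesn1 (-0.38) were lower again. These counts stand beside 9.05% of all genes called in the intermediate and 8.73% in the late window.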

How the data were processed

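Log2 signals, 1 per probe set and array, were used as the authors deposited them. The log2 scale was inferred from their range, 2.27 to 14.46. How the authors corrected, summarised and normalized them is not given in the sources used here. The labels' extraction protocol mentions islets although the samples are labelled as a cell line. Of 19239 probe sets, 16592 carried 1 symbol in the platform annotation and 2647 were unnamed; the brightest of several probe sets was kept for 5 symbols, which left 16587. All 40 columns matched a sample's labels.

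A model with 1 coefficient for each of the 26 groups (treatment by time) was fitted with limma 3.58.1 in R 4.3.3 (statmod 1.5.0), with 14 residual and 6.05 prior degrees of freedom. Groups with 1 array borrow their spread from the 14 groups with 2. The additive model and the replicate 1 fits instead held time and treatment terms within each window. For control arrays over time they held only the contrast of late against earlier times. With replicate 1 arrays alone each group holds 1 array. The residual of a window is then the scatter of the cytokine difference over its times, and not scatter between replicate arrays. Windows weight equally the times present in both arms, so leaving out a lone array takes its time out of the window. The p-values were adjusted by Benjamini-Hochberg over all symbols. Single times are given with their SE and without calls. The pipeline was tested on simulated data.

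The members and lists were chosen with earlier results of these data known. Values by array were given for every called member and for Slc3a2, Slc7a5, Slc7a11, Slc38a2, Slc1a5 and Slc7a8. Slc38a4, Slc38a6, Slc36a4 and Slc43a2 were added after their values were seen. From each list, genes called between cytokine and control arrays in a window were named, apart from the intermediate window of the ATF4 list. There the 3 higher and 2 lower genes were counted and not named. The late ATF4 list is named in full, its last 2 after their values were seen. On control arrays alone, only the leading called genes of a list were named. Alternatives were other scalings, filters, probe set summaries, moderation, array weights, an additive model, replicate 1 arrays only, the replicate block and each array left out. Promoters come from RefSeq, GRCr8. The number of arrays limits the precision.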

Additional observations from a re-analysis of the deposited data

Results flagged for a closer look

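The cytokine difference of Slc38a3 changed between windows by a test of the change itself, in both directions. It was 0.64 more negative at 6 to 12 h than at 1 to 4 h (difference -0.64, SE 0.12, adjusted p 0.00502 by limma) and less negative at 24 to 72 h than at 6 to 12 h by 0.57 (SE 0.11, adjusted p 0.00479). Leaving out 1 array at a time kept these between -0.83 and -0.53 and between 0.50 and 0.64. The first was no longer called without the 2 h control array (-0.53, adjusted p 0.0757). The groups of 1 or 2 arrays are too small for a test of outlying arrays.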

How the results depend on the processing

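The number of called members was 0 at 0 h and in the early window under every alternative run. With 1 array left out it ranged from 3 to 5 in the intermediate window, 0 to 2 in the late window, 0 to 2 for intermediate minus early, 1 to 2 for late minus intermediate and 0 to 2 for the control arrays over time. Over all 16587 genes these fits called 1027 to 1498, 977 to 1506, 109 to 419, 234 to 463 and 20 to 216 in the same order. Late counts were 2 with quantile normalization, 2 without the dimmest symbols, 2 with array weights, 3 with replicate 1 arrays only and 0 with arrays centred on their medians. Of all genes tested, these fits called 1534, 1504 of 11058, 1740, 1278 and 1364 late, beside 1448 in the main fit. The control count was 1 with quantile normalization, 4 with the additive model and 5 with replicate 1 arrays only. Over all genes these fits called 213, 322 and 446 on control arrays, beside 199 in the main fit. Requiring at least a 1.5-fold difference left 2 members in the intermediate window, 0 in the late window, 0 for late minus intermediate and 1 on control arrays. No share of all genes is given for this rule, so these counts cannot be read as particular to the members. Slc7a8 passed late under the additive model (adjusted p 0.0092), array weights (0.0396), the dimmest symbols left out (0.0475), quantile normalization (0.0382) and the replicate block (0.0158). The late call of Slc38a3 was lost with the additive model (0.12) and with arrays centred on their medians (0.0678). Of the differences of named members under these alternatives, 981 kept their side of the threshold, 30 lost the call and 19 gained one. Of those called in either fit, 0 changed sign. The 981 include uncalled differences that changed sign, such as late Slc1a5, which ranged from -0.26 to 0.02 with 1 array left out. The causes were not tested.

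Replicate number 2 is present in both arms only at 0 and 1 h. Of 91 pairs of groups with 2 arrays, 68 deviated together at a correlation over 0.1 (range -0.172 to 0.432, median 0.206), a hint that arrays of 1 number deviate together. The numbers were not used as pairs because neither the labels nor every correlation shows a pairing. With the replicate number as a block, the late count was 4, the late minus intermediate count 2 and the control count 6. The intermediate count was 6 with the block. Over all 16587 genes the block called 1780 late, 634 for late minus intermediate, 842 on control arrays and 1965 intermediate. The main fit called 1448, 380, 199 and 1501 in the same order. Slc38a4 was called in both windows with the block (-0.65 and -0.44, adjusted p 0.00627 and 0.0402), and Slc1a2 late (0.38, 0.00136) and for late minus intermediate (0.93, 2.34e-05). Slc38a5 late (-0.23, 0.00757) and Slc36a4 intermediate (-0.26, 0.0495) were called only with the block or, for Slc36a4, also without the 8 h replicate 1 cytokine array (-0.28, 0.0465). Slc38a3 late was not (-0.21, 0.0714). Signals near background limit what the 12 dim members can show.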
